A study of Mus musculus with 36 samples.

Results

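The 9 genes described here carry antigen presentation by major histocompatibility complex (MHC) class I molecules in the mouse. They are the heavy chains H2-K1 and H2-D1, the light chain B2m, the peptide transporter subunits Tap1 and Tap2, the loading chaperone Tapbp, the immunoproteasome subunits Psmb8 and Psmb9, and the regulator Nlrc5. They were chosen by name for their shared pathway and matched by symbol, and all 9 were found among the 24940 genes measured. Poly(A) RNA was sequenced from bulk cortex, corpus callosum and striatum of male mice and from sorted forebrain microglia of male mice. The study asked what a transgene that models multiple system atrophy (MSA) changes in the brain, and what follows when myeloid cells are depleted with PLX5622, an inhibitor of the receptor CSF1R on which microglia depend.

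MSA mice carried the MBP29-hα-syn transgene, in which the myelin basic protein promoter drives human alpha-synuclein in oligodendrocytes. In the bulk arms, MSA mice and control mice ate PLX5622 chow (1200 mg/kg) or standard AIN-76A chow, called placebo here, from 4 weeks of age for 12 weeks. For cortex there were 3 libraries of MSA mice on PLX5622, 3 of MSA mice on placebo, 3 of control mice on PLX5622 and 3 of control mice on placebo. For corpus callosum these numbers were 2, 2, 2 and 3, and for striatum 2, 3, 2 and 2. Microglia, gated as CD11b+CD45low cells without a diet arm, came from 16-week-old mice, with 3 MSA libraries and 3 control libraries. The labels tag the MSA microglia MBP29_homo and the control microglia MBP29_het, whereas the protocol speaks of WT mice, so control microglia may carry the transgene too. A no-treatment tag stands beside a PLX5622 title on both striatum libraries of control mice on PLX5622, and they were grouped by title. In CPM, counts scaled to a common total per library, the 20 microglial marker genes of these libraries summed to 38.1 to 55.9 CPM, against 754 to 755 CPM in control striatum on placebo. Depth ranged from 4360339 to 28622744 counts in genes over the 36 libraries. The labels do not say whether libraries came from separate animals, so p-values measure only the spread between these libraries, which may be technical.

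A class I molecule is a heavy chain bound to beta-2-microglobulin that holds a short peptide on the cell surface, where CD8+ T cells read it. Proteasomes cut cytosolic proteins into these peptides, and the TAP transporter pumps them into the endoplasmic reticulum, where tapasin holds empty class I molecules beside it. Interferons raise the whole set, in part through Nlrc5, a transactivator that acts on class I promoters. Neurons carry little class I at rest, while microglia and endothelial cells carry more.

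In mm10, 7 of the 9 members lie on chromosome 17. Tapbp (chromosome 17, 33919478 to 33929290), H2-K1 (17, 33996012 to 34000333), Psmb9 (17, 34182099 to 34187330), Tap1 (17, 34187556 to 34197225), Psmb8 (17, 34198195 to 34201454) and Tap2 (17, 34204479 to 34216321) lie within 297 kb. H2-D1 (17, 35263094 to 35267497) lies 1260 kb beyond H2-K1. B2m is on chromosome 2 (122147687 to 122153082) and Nlrc5 on chromosome 8 (94472763 to 94527272).

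RefSeq promoter windows (GRCm38.p6, the assembly of mm10, 250 bases before to 50 after the start) were held for 7 of the 9 genes, Tap2 and Nlrc5 being those without. The windows of both heavy chains, of B2m and of Tap1 are printed as examples. Those of Tapbp, Psmb8 and Psmb9 are not printed, and the Tapbp and Psmb8 windows hold none of the matches marked below. Each line runs 5′ to 3′ on the gene's strand, and capitals mark matches on either strand to GAAANNGAA, GAANNGAAA or TGACG.
H2-K1, chr17:34000284-34000583, minus strand: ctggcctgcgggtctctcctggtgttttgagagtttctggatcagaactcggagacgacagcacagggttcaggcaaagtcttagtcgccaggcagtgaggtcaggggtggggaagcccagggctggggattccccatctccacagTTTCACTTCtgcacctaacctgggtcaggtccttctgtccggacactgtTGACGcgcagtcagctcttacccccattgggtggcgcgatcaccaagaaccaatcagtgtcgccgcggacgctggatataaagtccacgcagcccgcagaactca
H2-D1, chr17:35262844-35263143, plus strand: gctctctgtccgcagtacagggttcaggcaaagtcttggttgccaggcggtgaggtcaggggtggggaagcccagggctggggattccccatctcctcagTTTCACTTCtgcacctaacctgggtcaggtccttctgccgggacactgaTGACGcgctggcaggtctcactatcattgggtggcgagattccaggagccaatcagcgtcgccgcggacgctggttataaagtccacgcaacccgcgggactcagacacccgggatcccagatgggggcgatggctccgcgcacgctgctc
B2m, chr2:122147437-122147736, plus strand: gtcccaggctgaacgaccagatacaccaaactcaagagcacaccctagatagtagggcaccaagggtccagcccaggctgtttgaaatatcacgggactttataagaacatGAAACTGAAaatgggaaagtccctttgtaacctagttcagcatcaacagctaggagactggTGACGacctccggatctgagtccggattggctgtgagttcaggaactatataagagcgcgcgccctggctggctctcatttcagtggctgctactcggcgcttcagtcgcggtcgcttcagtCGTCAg
Tap1, chr17:34187306-34187605, plus strand: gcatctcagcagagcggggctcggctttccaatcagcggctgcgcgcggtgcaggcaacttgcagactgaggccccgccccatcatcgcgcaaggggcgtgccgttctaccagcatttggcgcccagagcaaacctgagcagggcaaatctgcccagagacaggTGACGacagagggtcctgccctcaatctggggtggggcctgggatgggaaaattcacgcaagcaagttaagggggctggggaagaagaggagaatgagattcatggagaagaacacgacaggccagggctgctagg

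The heavy chain windows were alike, with 229 of 253 aligned bases identical (90.5%). Counting the start as base 0, both hold GAANNGAAA, read on the opposite strand, at -104 to -96 in H2-K1 and -150 to -142 in H2-D1, and TGACG at -55 to -51 in H2-K1 and -101 to -97 in H2-D1. B2m holds GAAANNGAA at -139 to -131. The interferon-type pattern GAAANNGAA is present in 8.56% of the 32851 RefSeq windows, and GAANNGAAA, added once the sequences had been seen, in 7.52%. TGACG, the core of a cyclic-AMP-response-like element, is present in windows of 5 member genes and in 20.8% of all windows, and CCAAT, read as a Y box, in those of 6 member genes and 37.4% of all. The STAT-type pattern TTCNNNGAA was found in the Psmb8 window and in 8.3% of all. The Tap1 and Psmb9 starts face away from each other 225 bases apart, so that their windows share 275 bases. The TGACG match of these genes is the same stretch of bases, as is their CCAAT match, and each was counted for both genes. A match describes letters, not a bound site.

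Levels between genes were compared in deposited TPM, a transcript measure that allows for gene length. B2m was the most abundant member in 36 of 36 libraries, H2-D1 stood above H2-K1 in 36 of 36 and Tap2 above Tap1 in 36 of 36, while Nlrc5 was lowest in 33 of 36. In control cortex on placebo the mean was 75.3 TPM for B2m, 25.2 for H2-D1, 18.8 for Tapbp, 17.1 for H2-K1, 4.16 for Tap2, 3.46 for Psmb8, 3.01 for Psmb9, 1.44 for Tap1 and 0.101 for Nlrc5. Neighbours in that order overlapped from H2-D1 to H2-K1 and from Tap2 to Psmb9, whereas B2m, with 59.7 to 92.7 TPM, lay above all other members and Nlrc5, with 0.075 to 0.148 TPM, below them. In control microglia the mean was 2270 TPM for B2m, 300 for H2-D1, 279 for Tapbp, 255 for H2-K1, 101 for Psmb8, 71.2 for Tap2, 55.3 for Psmb9, 37.2 for Tap1 and 1.28 for Nlrc5. Psmb8 stood above Psmb9 in 6 of 6 microglial libraries and in 21 of 30 bulk libraries. Low members rest on few reads. Psmb9 had 2 to 46 counts and Nlrc5 3 to 166 counts per bulk library, and Psmb8 had no counts in 1 control cortex library on PLX5622, which allows up to 3. The low-count filter kept 8 of 9 members in cortex, leaving out Psmb9, and 9 of 9 in the other fits. Nlrc5 in cortex and Psmb9 in striatum passed it through MSA libraries alone. In the fit of microglia with cortex, neither Nlrc5 nor Psmb9 would have passed on its cortex libraries. Their values in these fits are a description only.

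The heavy chains share sequence. The longest GENCODE coding transcripts of H2-K1 and H2-D1 are identical at 91.6% of aligned bases, and 5.31% of 50-base stretches of H2-D1 occur whole in H2-K1. The annotated gene H2-L lies inside H2-D1 and had 33.5 to 73.1% of its counts (median 50.3%). No source used here gives the way reads were shared out among these copies, and the H2-D1 and H2-K1 values are uncertain to that extent.

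Sorted control microglia held far more of every member in CPM than control cortex on placebo. B2m had 1540, 1400 and 1110 CPM in microglia, against 34.8, 56.3 and 55.9 CPM in cortex, a 27.6-fold ratio of means and a log2 difference of 4.94 ± 0.30 (SE) in edgeR's quasi-likelihood test (adjusted p = 1.34e-05). Tap1 had 64.0, 87.6 and 77.2 CPM against 3.35, 3.37 and 2.77 CPM, a log2 difference of 4.72 ± 0.26 (adjusted p = 9.37e-06), and Psmb8, the chymotrypsin-like immunoproteasome subunit, 83.3, 87.3 and 87.4 CPM against 3.21, 2.20 and 4.31 CPM, a log2 difference of 4.89 ± 0.26 (adjusted p = 8.78e-06). No library of one kind reached the other in any member, nor in 77.7% of all genes tested. H2-D1 stood closest, with 380, 425 and 280 CPM against 39.2, 31.1 and 26.3 CPM, a log2 difference of 3.61 ± 0.31 (adjusted p = 5.91e-05).

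The 9 members spanned log2 differences of 3.61 to 4.94 and all 9 were called higher in microglia, where 32.1% of the 14318 genes tested were called higher. Neither Nlrc5 nor Psmb9 would have passed the low-count filter on its cortex libraries. Both were tested because the microglial libraries are high, so their calls are a description only. The 4 microglial genes Csf1r, Cx3cr1, P2ry12 and Tmem119 differed by 6.55 to 7.32 on the same scale. Cell sorting and whole tissue dissection differ in preparation, and this cannot be told apart from cell type. Microglial libraries held choroid plexus markers too, 854 to 1620 CPM in MSA and 526 to 1190 CPM in control libraries, whereas neuron markers summed to 8.72 to 22.8 CPM over these 6 libraries.

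**Figure D1:**
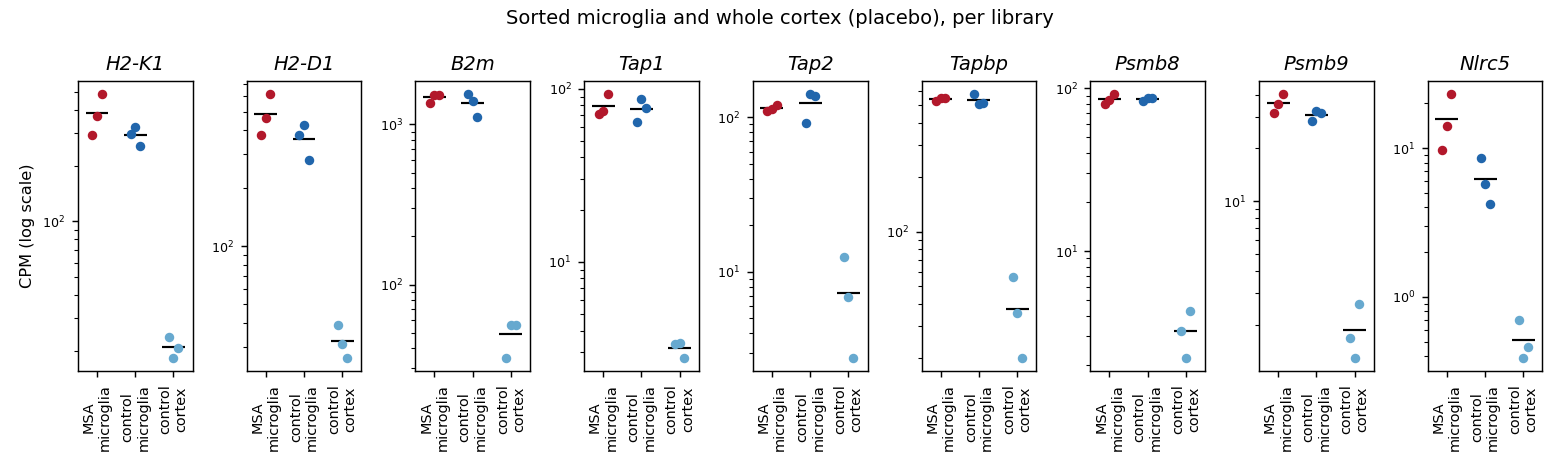
CPM on a log axis for the 9 members in MSA microglia, control microglia and control cortex on placebo, 3 libraries each as points, with the group mean as a bar. All microglial points lie above all cortex points, and only Nlrc5 separates MSA from control microglia.

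Among sorted microglia, no member passed between MSA and control cells, and Nlrc5 came nearest. Nlrc5 had 9.69, 14.0 and 23 CPM in MSA microglia, against 8.57, 5.75 and 4.21 CPM in control microglia, so the groups did not overlap, as for 17.5% of all genes tested. Its log2 change of 1.30 ± 0.38 did not pass (adjusted p = 0.281 in edgeR's quasi-likelihood test), while DESeq2 called it (adjusted p = 0.0109). H2-K1 had 293, 373 and 486 CPM in MSA against 297, 322 and 257 CPM in control microglia (log2 change 0.35 ± 0.19), and H2-D1 379, 462 and 616 CPM against 380, 425 and 280 CPM (0.38 ± 0.24), with overlap in both. The other 6 members had log2 changes of -0.15 to 0.17.

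None of the 9 members passed in edgeR between sorted microglia of the genotypes, 1 of 9 had an unadjusted p under 0.05 and 1 passed in DESeq2. In that comparison 0.61% of 11810 genes passed. The median log2 change was 0.077 for the members and 0.0051 for all genes. Microglial markers summed to 76800 to 81100 CPM in MSA and 81800 to 85600 CPM in control microglia, with 0 of 20 called in edgeR, 6 at an unadjusted p under 0.05 and 1 in DESeq2. The dendritic cell markers, none of which was at 0, summed to 56.5 to 66.2 CPM in MSA and 22.9 to 36.5 CPM in control microglia, with 1 of 3 tested called higher. Their part in the Nlrc5 difference was not tested.

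In bulk tissue under placebo chow, every member had a positive MSA-minus-control log2 change when the 3 regions were averaged. H2-D1 passed the threshold, by 0.98 ± 0.19 (adjusted p = 0.0142), and was the 1 of 9 members called higher, against 0.311% of 16080 genes. H2-K1 (0.72 ± 0.19, adjusted p = 0.0861) and Nlrc5 (1.53 ± 0.41, adjusted p = 0.0983) came next. The members' median was 0.63 and that of all genes 0.0011, and 7 of 9 members had an unadjusted p under 0.05, as did 11.3% of all genes. In bulk tissue, fewer cells of a type and less RNA per cell cannot be told apart, and the same holds for more of either.

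The heavy chains stood higher by value in each region. H2-D1 had 52.5, 45.8 and 55.7 CPM in MSA cortex, against 39.2, 31.1 and 26.3 CPM in control cortex, a log2 change of 0.67 ± 0.23. In corpus callosum it had 94.0 and 78.1 CPM in MSA mice, against 37.8, 25.2 and 36.4 CPM in control mice (1.40 ± 0.36). In striatum it had 52.8, 40.5 and 48.0 CPM in MSA mice against 25.4 and 25.7 CPM in control mice (0.89 ± 0.34). In each of the 3 regions the lowest MSA library lay above the highest control library, and the same held for H2-K1. Among all genes tested the groups did not overlap for 8.67% (cortex), 35.2% (corpus callosum) and 17.9% (striatum). H2-K1 had 30.1, 26.6 and 29.3 CPM in MSA cortex, against 23.9, 18.3 and 20.8 CPM in control cortex (0.46 ± 0.30). It had 56.9 and 37.9 CPM in MSA corpus callosum, against 24.4, 16.1 and 24.2 CPM (1.16 ± 0.38), and 28.6, 28.3 and 25.4 CPM in MSA striatum against 18.8 and 18.5 CPM in control striatum (0.57 ± 0.22). Within a region none of these passed over all genes (adjusted p of 0.23 to 0.999).

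B2m, the chain every class I molecule needs, separated less in cortex. It had 54.4, 57.1 and 70.7 CPM in MSA cortex, against 34.8, 56.3 and 55.9 CPM in control cortex, which overlapped. In corpus callosum it had 122 and 91.0 CPM in MSA mice against 51.0, 57.1 and 89.0 CPM in control mice. In striatum it had 72.5, 45 and 45.9 CPM against 26.2 and 35.1 CPM (log2 change 0.84 ± 0.27, adjusted p = 0.999). Both of the last pairs of groups stood apart, the corpus callosum one narrowly. The same held for 35.2% of all genes tested in corpus callosum and 17.9% in striatum.

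The transporter, chaperone and regulator had their highest placebo means in MSA corpus callosum. Tap1 had 8.59 and 5.01 CPM there, against 3.03, 2.46 and 1.75 CPM in control corpus callosum (1.56 ± 0.46), and Tap2 had 14.8 and 12.0 CPM against 6.91, 3.96 and 8.18 CPM (1.09 ± 0.35). Tapbp had 74.3 and 62.5 CPM against 44.0, 34.7 and 32.5 CPM (0.90 ± 0.29), and Nlrc5 had 5.80 and 3.26 CPM against 1.40, 1.5 and 2.12 CPM (1.47 ± 0.53). None of these 4 genes overlapped between the genotypes in corpus callosum, where 35.2% of all genes tested did not. Tap1, Tap2 and Tapbp overlapped in cortex and in striatum, where 8.67% and 17.9% of all genes did not. Tap1 in cortex, for example, had 3.22, 4.94 and 6.97 CPM in MSA mice against 3.35, 3.37 and 2.77 CPM in control mice. Nlrc5 in cortex had 2.78, 3.24 and 0.536 CPM in MSA against 0.698, 0.388 and 0.462 CPM in control mice (2.04 ± 0.84), 1 MSA library lying within the control range. Nlrc5 passed the low-count filter in cortex through MSA libraries alone, so its change there is a description only. The immunoproteasome subunits, which replace constitutive catalytic subunits of the proteasome, differed by region. Psmb8 had 5.62 and 4.14 CPM in MSA corpus callosum, against 2.70, 1.64 and 3.82 CPM in control mice (0.86 ± 0.50), without overlap. Psmb9 had 1.17, 0.852 and 1.21 CPM in MSA cortex, all below the 1.68, 1.29 and 2.62 CPM of control cortex, and 1.63, 2.40 and 1.62 CPM in MSA striatum, all above the 1.32 and 1.07 CPM of control striatum. In striatum Psmb9 passed the low-count filter through MSA libraries alone, so this difference is a description only.

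Counts of calls by region were 0 in edgeR for cortex (8 members tested, 2 with an unadjusted p under 0.05), for corpus callosum (9 tested, 6) and for striatum (9 tested, 3). DESeq2 called 0, 1 and 0 members in the same order. The background for cortex was 0% of 14600 genes, where 514 genes had an unadjusted p under 0.05 and DESeq2 called 3. It was 0.321% of 15881 genes for corpus callosum and 0.0336% of 14872 genes for striatum. An unadjusted p under 0.05 was found for 3.52%, 8.53% and 3.75% of all genes in the same order. The members' medians were 0.40, 1.09 and 0.67, against 0.0162, 0.00525 and 0.0138 for all genes. Of the members tested, the groups did not overlap for 2 of 8 (cortex), 8 of 9 (corpus callosum) and 4 of 9 (striatum). The shares of all genes were 8.67%, 35.2% and 17.9% in the same order, and the corpus callosum groups had 2 and 3 libraries. Member counts and medians include Nlrc5 in cortex and Psmb9 in striatum, which passed the low-count filter there through MSA libraries alone. Psmb9 is among the striatum members without overlap. Whether the genotype difference itself differed between regions was not tested.

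Markers of other cell types moved with the corpus callosum values. The 10 choroid plexus markers, none of them at 0 in any group, summed to 8280 and 3220 CPM in the 2 MSA libraries on placebo, against 255 to 350 CPM in the 3 control libraries, and 9 of 10 were called higher. Meningeal fibroblast markers summed to 329 to 562 CPM in MSA and 132 to 137 CPM in control libraries (1 of 7 called higher), and microglial markers to 1190 to 1420 CPM in MSA and 843 to 956 CPM in control libraries (0 of 20 called in edgeR, 8 at an unadjusted p under 0.05, 0 in DESeq2). The MSA libraries on placebo differed in depth, with 28622744 and 4594666 counts in genes. In the same corpus callosum libraries, sums were also higher without overlap in MSA for monocyte and neutrophil markers (28.1 to 28.2 CPM against 9.57 to 14.5 CPM in control mice), endothelial markers (256 to 266 against 181 to 195 CPM), ependymal markers (84.7 to 89.7 against 36 to 56.6 CPM) and astrocyte markers (7480 to 9350 against 5950 to 6560 CPM). None of the genes tested in these 4 lists was called in edgeR, and 1 of 2, 3 of 11, 2 of 6 and 2 of 8 had an unadjusted p under 0.05, with 1, 0, 0 and 0 called in DESeq2. In striatum 1 MSA library on placebo held 3910 CPM of choroid plexus markers, against 68.8 and 457 CPM in the others. In cortex the sums overlapped, 43.6 to 258 CPM in MSA and 22.1 to 576 CPM in control libraries. T and NK cell markers were 5.56 to 7.18 CPM in MSA and 3.01 to 18.7 CPM in control corpus callosum, with 6 of 13 markers at 0 in MSA and 5 of 13 in control libraries. A list of class I receptors and related receptors summed to 4.14 to 6.25 CPM in MSA and 0.82 to 0.972 CPM in control corpus callosum. Of its genes, 3 of 10 were at 0 in MSA and 6 of 10 in control libraries. In edgeR 0 of 2 tested were called, 1 at an unadjusted p under 0.05 and 1 in DESeq2. This sum is not particular to T and NK cells. Its genes Pirb, Klrd1, Lilra5 and Lilrb4a were called higher in sorted control microglia than in control cortex on placebo. The part of these cell types in the class I values was not tested. Without the corpus callosum libraries, a choice made after seeing the data, the averaged H2-D1 change was 0.78 ± 0.21 and did not pass (adjusted p = 0.495).

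The averaged H2-D1 call was also lost without MSA corpus callosum library 1 (adjusted p = 0.0827), control striatum library 1 (0.0893) or control striatum library 2 (0.0729), all on placebo. DESeq2 called H2-K1 (adjusted p = 0.0273) and Nlrc5 (0.03) beside H2-D1.

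**Figure D2:**
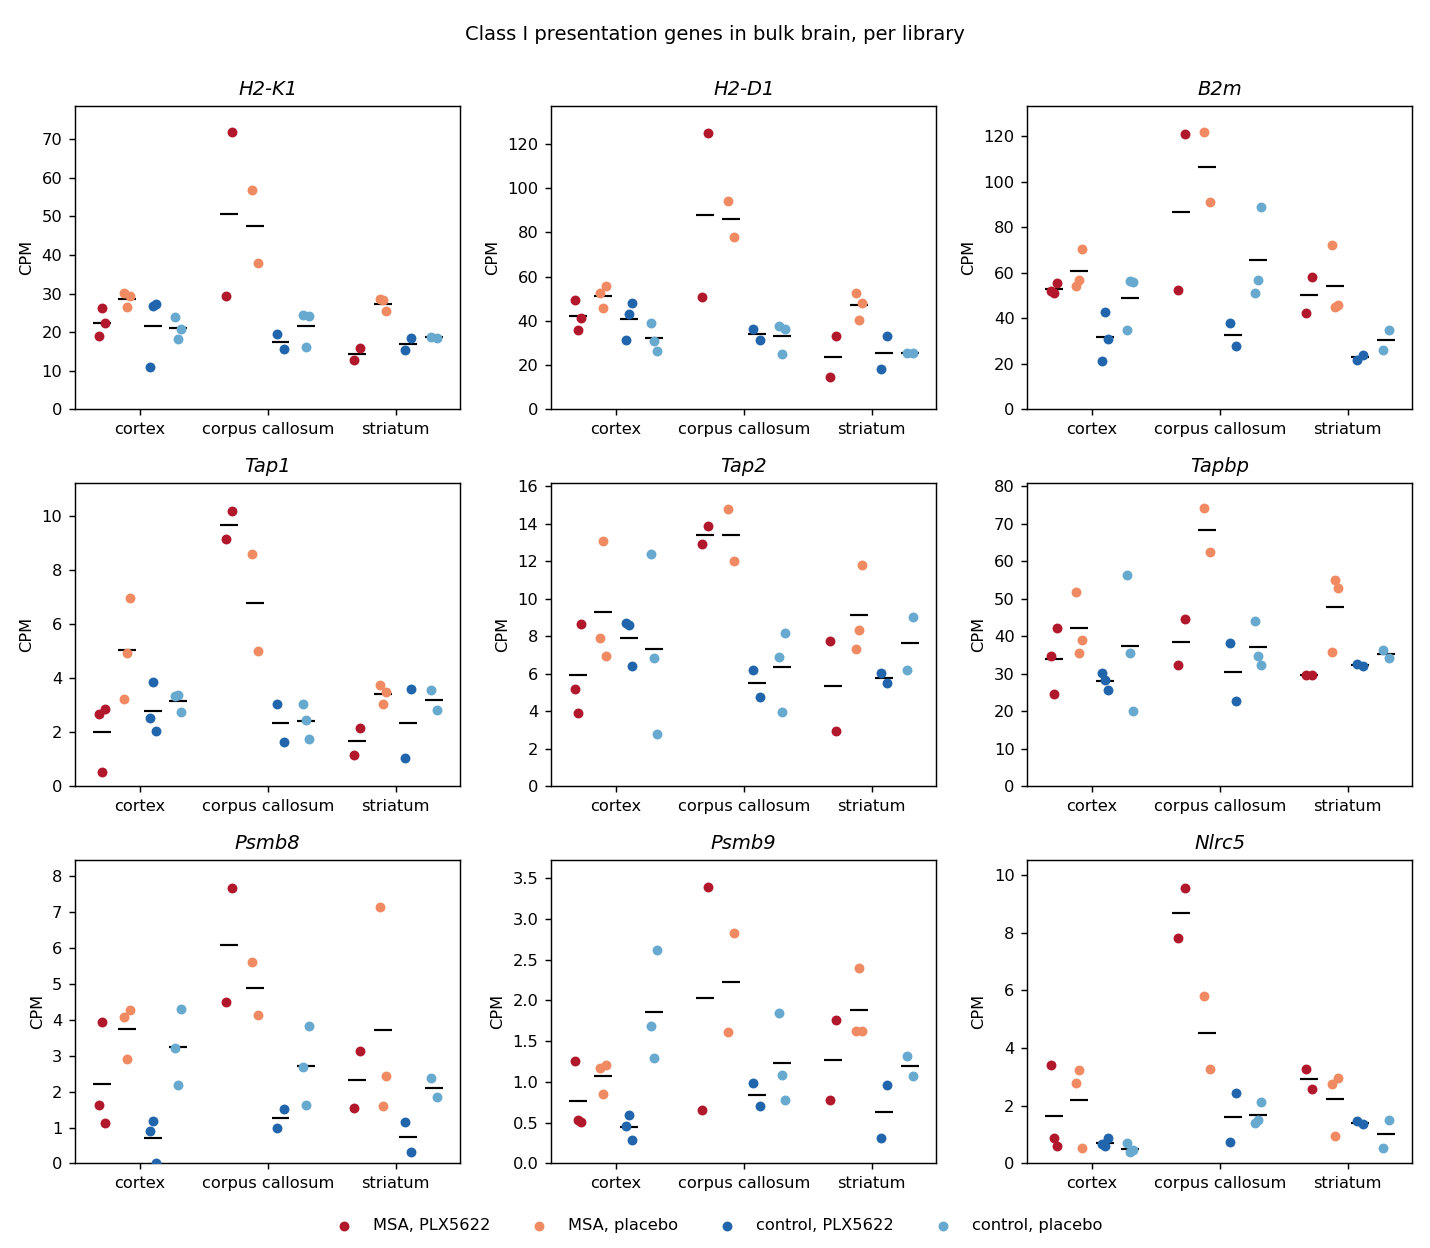
CPM of the 9 members in each bulk library by region, with MSA left of control and PLX5622 left of placebo within each genotype. Points are libraries and bars are group means. H2-D1 reaches 78.1 to 94.0 CPM in MSA corpus callosum on placebo, against 25.2 to 37.8 CPM in its controls.

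**Figure D3:**
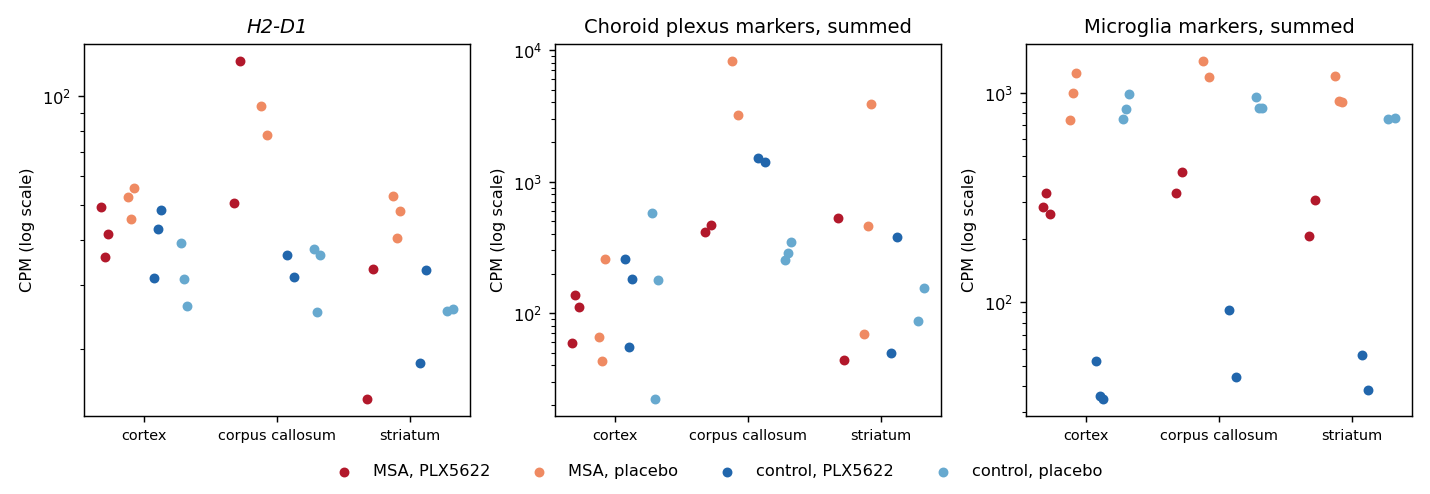
H2-D1 and the summed choroid plexus and microglial markers in each bulk library (CPM, log axes), MSA left of control and PLX5622 left of placebo within each genotype. The choroid plexus sum is 3220 to 8280 CPM in MSA corpus callosum on placebo and 255 to 350 CPM in its controls, and 416 to 468 CPM in MSA corpus callosum on PLX5622 against 1410 to 1510 CPM in its controls.

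Under PLX5622, B2m was the member that passed between the genotypes. It had 51.9, 51.1 and 55.6 CPM in MSA cortex, against 21.3, 42.7 and 31.1 CPM in control cortex (log2 change 0.67 ± 0.26). It had 52.5 and 121 CPM in MSA corpus callosum against 38.1 and 27.7 CPM in control mice (1.32 ± 0.42), and 42.3 and 58.2 CPM in MSA striatum against 21.9 and 24.1 CPM in control striatum (1.13 ± 0.29). No region overlapped, which held for 6.4% of all genes in cortex, 25.3% in corpus callosum and 43.4% in striatum. The averaged log2 change was 1.03 ± 0.20 (adjusted p = 0.00547, edgeR), the 1 of 9 members called higher against 0.833% of 16080 genes. The call was lost without MSA corpus callosum library 3 (0.76, adjusted p = 0.0583), in a fit of only the groups compared (0.0607) and without all corpus callosum libraries (0.88, 0.0603). Without the control striatum PLX5622 libraries, averaging cortex and corpus callosum, the change was 1.00 ± 0.24 and did not pass (0.06), a choice made after seeing the data like the last.

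Psmb8 and Nlrc5 followed. Psmb8 had 1.62, 3.93 and 1.12 CPM in MSA cortex, against 0.917, 1.19 and 0 CPM in control cortex, where 1 MSA library lay under the highest control library. It had 4.49 and 7.67 CPM in MSA corpus callosum against 0.988 and 1.52 CPM in control mice, and 1.55 and 3.12 CPM in MSA striatum against 1.15 and 0.319 CPM. Its averaged change was 1.82 ± 0.47 (adjusted p = 0.0627), and DESeq2 called it (0.00525). The averaged value of Nlrc5 was 1.48 ± 0.44 (adjusted p = 0.152), with 7.83 and 9.56 CPM in MSA corpus callosum against 0.760 and 2.45 CPM in control mice.

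The heavy chains and Tap1 stood higher by value in MSA corpus callosum on PLX5622. In that region H2-K1 had 29.3 and 71.8 CPM in MSA against 19.5 and 15.6 CPM in control mice (log2 change 1.45 ± 0.43), H2-D1 50.7 and 125 CPM against 36.4 and 31.5 CPM (1.30 ± 0.40), and Tap1 9.14 and 10.2 CPM against 3.04 and 1.63 CPM (1.92 ± 0.52). The 2 MSA libraries lay far apart in both heavy chains. In cortex H2-K1 had 18.9, 26.3 and 22.3 CPM in MSA against 11, 26.7 and 27.2 CPM in control mice, and in striatum 12.9 and 15.9 CPM against 15.3 and 18.5 CPM, with overlap in both. Tap2 had 12.9 and 13.9 CPM in MSA corpus callosum on PLX5622 against 6.23 and 4.78 CPM in control mice (1.19 ± 0.40). Its groups did not overlap there, as for 25.3% of all genes tested. In the same region Tapbp had 32.4 and 44.6 CPM against 38.1 and 22.9 CPM (0.24 ± 0.32) and Psmb9 0.657 and 3.39 CPM against 0.988 and 0.7 CPM (1.15 ± 0.94), both with overlap. Averaged over regions the change was 0.39 ± 0.20 for H2-K1, 0.38 ± 0.20 for H2-D1 and 0.31 ± 0.34 for Tap1, and each turned negative without corpus callosum (-0.14, -0.080 and -0.50).

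No member passed in a single region under PLX5622 in edgeR, where 1 of 8 members (cortex), 7 of 9 (corpus callosum) and 1 of 9 (striatum) had an unadjusted p under 0.05 and DESeq2 called 0, 1 and 0. The background was 0.151% for cortex, 0.195% for corpus callosum and 0.222% for striatum at the adjusted threshold, and 2.82%, 4.46% and 11% of all genes had an unadjusted p under 0.05. In corpus callosum the groups did not overlap for 7 of 9 members and for 25.3% of all genes. The averaged median was 0.39 for the members and -0.0321 for all genes. Choroid plexus markers ran the other way here, 416 to 468 CPM in MSA and 1410 to 1510 CPM in control corpus callosum (0 of 10 called in edgeR, 8 at an unadjusted p under 0.05, 6 in DESeq2). MSA library 1 there had 59.6% of its header total in listed genes, against 73.9% in library 3. For the control libraries there the share was 77.2% in library 1 and 59.5% in library 2. Microglial markers were 334 to 419 CPM in MSA and 44.3 to 92.4 CPM in control corpus callosum, with 13 of 20 called higher there and 19 of 20 in the average. Their part was not tested.

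**Figure D4:**
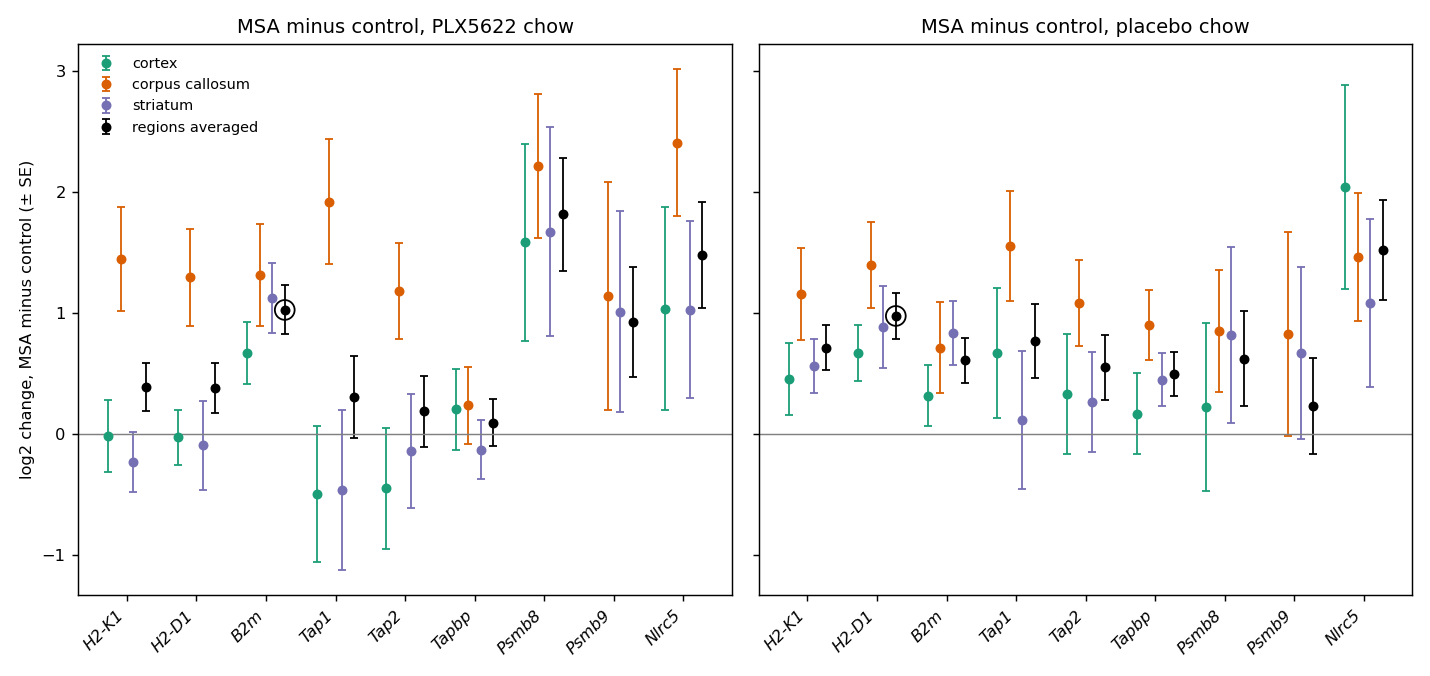
Log2 change of each member, MSA minus control, with its SE, by region and averaged over regions, for PLX5622 (left) and placebo (right). Circles mark the values with adjusted p under 0.05, which are B2m under PLX5622 (1.03) and H2-D1 under placebo (0.98), both averaged over regions. Psmb9 has no cortex value because it did not pass the low-count filter there.

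PLX5622 lowered microglial transcripts, whereas no class I member passed. In MSA mice the averaged log2 change on PLX5622 was -2.39 to -2.62 for Csf1r, Cx3cr1, P2ry12 and Tmem119, and in control mice it was -8.96, -7.66, -6.98 and -6.29 for these genes in that order. Csf1r had no counts in any of the 3 control cortex libraries on PLX5622, which allows up to 3 counts in each, and its fitted change there depends on the prior count. Over the members the averaged change was -0.65 to 0.23 in MSA mice and -1.61 to 0.28 in control mice. The members' median was -0.44 in MSA and -0.18 in control mice, and that of all genes -0.0234 in MSA and 0.0162 in control mice. As a share of the placebo mean, the members' PLX5622 means had medians of 75.1% in MSA cortex, 102% in MSA corpus callosum and 62.0% in MSA striatum, and of 88.6%, 82.3% and 76.0% in control mice in that order of regions.

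In MSA mice Tapbp was lower by value on PLX5622 in each region, and the heavy chains in cortex and striatum. Tapbp had 32.4 and 44.6 CPM in corpus callosum on PLX5622, against 74.3 and 62.5 CPM on placebo, and 29.6 and 29.8 CPM in striatum against 35.8, 55.0 and 52.8 CPM. Its averaged change was -0.65 ± 0.19 (adjusted p = 0.067 in edgeR, 0.0294 in DESeq2). H2-K1 had 12.9 and 15.9 CPM in striatum on PLX5622 against 28.6, 28.3 and 25.4 CPM on placebo (log2 change -0.90 ± 0.23, adjusted p = 0.179), and H2-D1 had 14.5 and 33.2 CPM against 52.8, 40.5 and 48.0 CPM (-0.94 ± 0.34, adjusted p = 0.298). Groups did not overlap in striatum for either, as for 26.9% of all genes tested there. In corpus callosum the heavy chains were not lower in the mean, H2-K1 with 29.3 and 71.8 CPM on PLX5622 against 56.9 and 37.9 CPM on placebo (107% of the placebo mean) and H2-D1 with 50.7 and 125 CPM against 94.0 and 78.1 CPM (102%). In cortex their PLX5622 means were 78.4% and 82.3% of placebo. Tap1 in cortex had 2.69, 0.537 and 2.86 CPM on PLX5622 against 3.22, 4.94 and 6.97 CPM on placebo (-1.33 ± 0.55, adjusted p = 0.921).

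In control mice Psmb8 had the lowest log2 change by value. Psmb8 had 0.917, 1.19 and 0 CPM in cortex on PLX5622, against 3.21, 2.20 and 4.31 CPM on placebo. It had 0.988 and 1.52 CPM in corpus callosum on PLX5622 against 2.70, 1.64 and 3.82 CPM, and 1.15 and 0.319 CPM in striatum against 2.37 and 1.86 CPM. No region overlapped, which held for 5.29%, 14.2% and 25.6% of all genes in these regions, and the averaged change was -1.61 ± 0.45 (adjusted p = 0.101 in edgeR, 0.0135 in DESeq2). B2m had 21.3, 42.7 and 31.1 CPM in cortex on PLX5622 against 34.8, 56.3 and 55.9 CPM on placebo, 38.1 and 27.7 CPM in corpus callosum against 51.0, 57.1 and 89.0 CPM, and 21.9 and 24.1 CPM in striatum against 26.2 and 35.1 CPM. Its averaged change was -0.66 ± 0.20 (adjusted p = 0.153), and the cortex libraries of the diets overlapped. Without the control striatum PLX5622 libraries these averages were -1.68 ± 0.52 for Psmb8 and -0.80 ± 0.23 for B2m. H2-D1 had an averaged change of 0.15 ± 0.20 with 31.4, 43.0 and 48.3 CPM in control cortex on PLX5622 against 39.2, 31.1 and 26.3 CPM on placebo.

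No member passed for diet in edgeR in any region or in the average. The background in MSA mice was 0.0548% for cortex, 0.0693% for corpus callosum, 0.074% for striatum and 2.31% for the average, and in control mice 0.486%, 0.46%, 0.336% and 1.38%. Members with an unadjusted p under 0.05 were 1, 1, 3 and 3 in MSA mice, where 4.42%, 8.48%, 13.8% and 20.4% of all genes had one, in the same order. They were 2, 1, 0 and 3 in control mice, where 2.86%, 3.91%, 2.25% and 5.51% of all genes had one. DESeq2 called 1 in each average and 0 in each region. In the averages 17 of 20 microglial markers were called lower in MSA mice and 20 of 20 in control mice. Choroid plexus markers in corpus callosum moved with diet in opposite directions, 5 of 10 called lower in MSA mice and 6 of 10 higher in control mice, and their part was not tested.

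**Figure D5:**
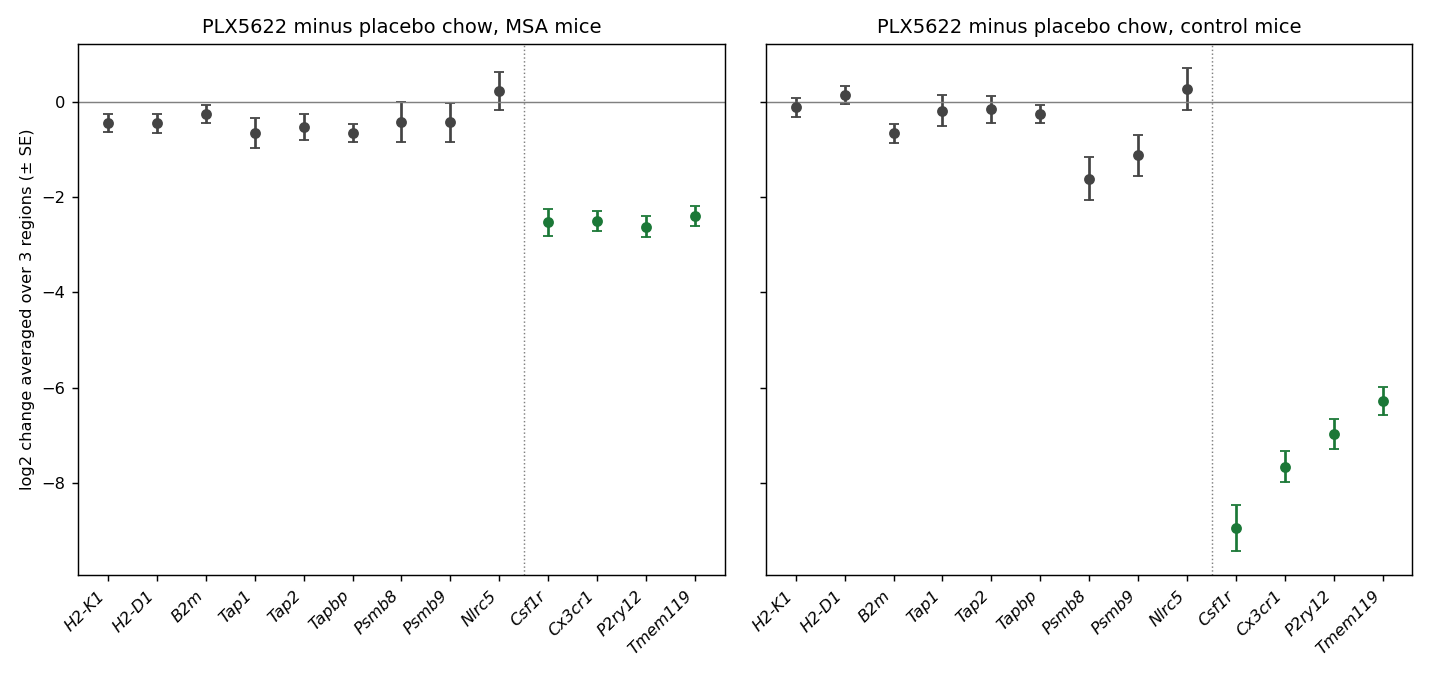
Log2 change with diet (PLX5622 minus placebo), averaged over 3 regions with its SE, for the 9 members and, right of the dotted line, 4 microglial genes, in MSA mice (left) and control mice (right). The microglial genes lie at -2.39 to -2.62 in MSA and -6.29 to -8.96 in control mice, while the members stay between -1.61 and 0.28.

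The genotype-by-diet interaction asked whether PLX5622 acted differently in MSA and control mice. None of the 9 members passed in edgeR or in DESeq2, 1 of 9 had an unadjusted p under 0.05, and 0.361% of genes passed. H2-D1 had the smallest p, at -0.60 ± 0.28 (adjusted p = 0.39), and Psmb8 the largest value, 1.19 ± 0.61 (adjusted p = 0.4). Without the control striatum PLX5622 libraries, averaging cortex and corpus callosum, these values were -0.38 ± 0.32 and 1.38 ± 0.71. By comparison 17 of 20 microglial markers passed higher.

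Between regions of control mice on placebo no member passed. Nlrc5 had 1.40, 1.5 and 2.12 CPM in corpus callosum against 0.698, 0.388 and 0.462 CPM in cortex (1.57 ± 0.71, adjusted p = 0.307), and B2m had 26.2 and 35.1 CPM in striatum against 34.8, 56.3 and 55.9 CPM in cortex (-0.70 ± 0.34, adjusted p = 0.191). None of the 9 passed in edgeR or DESeq2 in corpus callosum against cortex, with 1 of 9 at an unadjusted p under 0.05 and 2.94% of genes called, nor in striatum against cortex, with 0 of 9 and 12.9% of genes called. Over all genes 14.1% had such a p in corpus callosum against cortex and 26.5% in striatum against cortex.

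The rest of the pathway was read from lists of other class I genes, loading factors, proteasome subunits, regulators, interferon receptors and interferon-stimulated genes. In sorted control microglia against cortex, where 32.1% of all genes were called higher and 38.7% lower, 8 of 10 other class I heavy chain genes tested were higher, among them H2-T23 (3.82 ± 0.23) and H2-Q4 (4.42 ± 0.38). So were 9 of 13 loading and trimming genes, such as the aminopeptidase Erap1 (3.88 ± 0.28), 15 of 21 regulators, led by Irf8 (6.88 ± 0.25), and 10 of 11 interferon receptor and signalling genes, such as Ifngr1 (6.11 ± 0.27). Of 20 other proteasome subunits and activators 2 were higher and 1 lower, and of 30 interferon-stimulated genes 20 were higher and 1 lower.

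In bulk tissue fewer of these genes passed. With genotype under placebo, H2-L (1.04 ± 0.24, adjusted p = 0.0379), which lies inside H2-D1, was the 1 of 15 other heavy chain genes called, and the cytokine signalling inhibitor Socs3 (1.27 ± 0.29, adjusted p = 0.0394) the 1 of 11 receptor and signalling genes. In edgeR 0 of 21 regulators (4 at an unadjusted p under 0.05, 0 in DESeq2), 0 of 13 loading genes (0 and 0), 0 of 20 proteasome genes (4 and 0) and 0 of 31 interferon-stimulated genes (8 and 2) passed there, and their medians were 0.025, 0.15, -0.24 and 0.40 in that order. Under PLX5622 the interferon-stimulated gene Ifit3b (1.59 ± 0.32, adjusted p = 0.00794) and Irf8 (1.61 ± 0.25, adjusted p = 0.000248), a transcription factor of myeloid cells, were higher in MSA mice. With diet Irf8 was lower in MSA mice (-1.24 ± 0.22, adjusted p = 0.00264) and in control mice (-2.21 ± 0.24, adjusted p = 6.89e-07), and the interferon receptor chains Ifngr1 (-0.79 ± 0.17, adjusted p = 0.0158) and Ifnar2 (-0.62 ± 0.17, adjusted p = 0.0466) were lower in MSA mice. H2-Q6 and H2-Q8 gave the same value in control mice with diet (3.29 ± 0.83, adjusted p = 0.0444). These are near-identical copies, and their values are uncertain. In striatum against cortex of control mice on placebo, 8 genes of these lists passed, where 6.59% of all genes were higher and 6.32% lower. The heavy chain genes H2-T22 (-1.45 ± 0.39, adjusted p = 0.0149) and H2-T9 (-1.22 ± 0.39, adjusted p = 0.0371), the immunoproteasome subunit Psmb10 (-2.69 ± 0.64, adjusted p = 0.00601), Irf2 (-0.95 ± 0.25), Socs3 (-2.98 ± 0.59) and Ifngr2 (-1.28 ± 0.30) were lower in striatum. Bcl11b (2.73 ± 0.44, adjusted p = 0.000145), also a transcription factor of striatal neurons, and the kinase Jak2 (0.90 ± 0.21) were higher there.

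In MSA against control microglia, 2 of 4 tested genes passed from a list of class I receptors and related receptors, not all of which bind class I. The inhibitory receptor Lilrb4a was higher (1.76 ± 0.23, adjusted p = 0.0063) and Pirb was lower (-0.71 ± 0.12, adjusted p = 0.0259). The heat shock gene Hspa1a was lower there (-2.13 ± 0.35, adjusted p = 0.0234), 1 of 50 neighbours of H2-D1 tested, against 0.61% of all genes. Around the members, within 500 kb, the class II genes H2-Aa (3.19 ± 0.61, adjusted p = 0.0131) and H2-Ab1 (2.26 ± 0.48, adjusted p = 0.0249) were higher in MSA mice on placebo, 2 of 51 genes tested at the Tapbp to Tap2 locus, against 0.504% of all genes called. In edgeR 0 of 12 neighbours of B2m (2 at an unadjusted p under 0.05, 0 in DESeq2) and 0 of 22 neighbours of Nlrc5 (1 and 0) passed there. Between MSA and control microglia, 0 of 10 neighbours of B2m (0 and 0) and 0 of 18 of Nlrc5 (4 and 0) passed. There 10.7% of all genes had an unadjusted p under 0.05. Under PLX5622, 1 of 51 neighbours at the Tapbp to Tap2 locus was called higher, Myo1f (4.49 ± 0.53, adjusted p = 5.8e-06), against 1% of all genes called, and it is named here after its value was seen.

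Profiles over the 14 groups were compared by the root mean square difference of centred mean log2 CPM over 12441 genes, and the nearest genes were described without a test. H2-L was the nearest non-member to H2-D1 (0.17) and to H2-K1 (0.21), and lies inside H2-D1. Ctsa and Nfkb1 were nearest to Tapbp (0.16 each) and Vasp and Lacc1 to Psmb9 (0.20 and 0.21). Dnase2a was nearest to B2m (0.26), Irgm2 and Parp14 to Tap1 (0.35 and 0.36), Ifnar2 to Tap2 (0.26), Pros1 to Psmb8 (0.33) and Nod1 to Nlrc5 (0.46). Nlrc5 lay furthest from the rest of its set, its nearest member being H2-D1 at 0.77.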

How the data were processed

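The authors' deposited table gives unnormalised whole counts of reads for each gene, and a second one TPM for the same 24940 genes and 36 libraries. The submitters' processing notes name mm10, STAR, HOMER and DESeq2. No source used here gives versions, counting settings or strand use, and overlapping genes cannot be told apart. Listed genes held 59.5 to 84.5% of the header totals, under 70% in 6 libraries. Deposited TPM served only to compare genes within libraries. CPM were computed over listed genes.

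Each region was fitted with its 4 groups, all 30 bulk libraries together for averages and regions, microglia alone, and control microglia with control placebo cortex. Genes kept by filterByExpr (minimum count 10) got TMM factors, and edgeR 4.0.16 (R 4.3.3) gave robust quasi-likelihood F tests, called at an adjusted p (Benjamini-Hochberg) under 0.05. SE is the log2 change over the root of F. DESeq2 1.42.0, limma 3.58.1, RLE factors, no filter, a replicate block, libraries left out and groups fitted alone were alternatives. Scripts were tested on simulated counts. Libraries of different regions were fitted as independent, although they may share mice. All 9 members are named, with up to 4 genes of smallest p per list, 3 like genes per member by root mean square difference of group means (fewer are printed) and called neighbours within 500 kb in the placebo and microglia genotype comparisons. Members and lists were chosen with earlier results of these data known. Library pairs within groups differed by more than sampling noise (chi-square over its degrees of freedom, 4.67 to 132.89 in 30 pairs).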

Additional observations from a re-analysis of the deposited data

Results flagged for a closer look

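Tap1 moved with diet in MSA mice in opposite directions by region without overlap. The PLX5622 to placebo ratio of mean CPM was 0.403 in cortex and 0.485 in striatum, and 1.42 in corpus callosum. Among all genes tested these groups did not overlap for 14.8% in cortex, 26.9% in striatum and 50.1% in corpus callosum. On PLX5622, Tap1 rested on 15, 3 and 28 counts in the MSA cortex libraries and on 6 and 16 counts in the MSA striatum libraries. Psmb9 moved with genotype under placebo in opposite directions without overlap, with an MSA to control ratio of mean CPM of 0.577 in cortex and 1.58 in striatum. For genotype under placebo, 8.67% of all genes tested in cortex and 17.9% in striatum did not overlap. Neither difference between regions was tested. Psmb9 had 2 to 46 counts per bulk library and did not pass the low-count filter in cortex. In striatum it passed through MSA libraries alone.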

How the results depend on the processing

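Of 1789 log2 changes recomputed under alternatives, 1713 kept direction and side of the threshold, 28 passed newly, 8 no longer passed and 40 changed sign. Of 304 recomputed counts of members called, 275 stayed within 1.5 times. For MSA against control on placebo the averaged count of 1 became 3 with DESeq2, 2 with only the groups compared, 3 without libraries under 70% assigned, 0 without corpus callosum (chosen after seeing the data) and 0 to 1 leaving out each library. On PLX5622 the count of 1 became 2 with DESeq2, 0 with only the groups compared, 0 without corpus callosum and 0 to 2 leaving out each library. In corpus callosum the count of 0 became 1 with DESeq2, 3 with only the groups compared and 2 without libraries under 70% assigned on placebo. On PLX5622 it became 1 with DESeq2. Leaving out those libraries left 1 MSA library (library 3) and 1 control library on PLX5622 there. The log2 change was then 1.58 for B2m and 1.69 for H2-D1. For diet, the averaged count of 0 became 1 with DESeq2 in control mice, and in MSA mice 1 with DESeq2, 1 with only the groups compared and 0 to 1 leaving out each library, as in MSA striatum (0 to 1). In sorted microglia it became 1 with DESeq2 and 0 to 1 leaving out each library.

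Correlations could not settle whether replicate numbers pair the libraries. In a group of 2 libraries, centring gives same-numbered and different-numbered pairs the same size with opposite signs. In cortex, with 3 libraries a group, different-numbered pairs ranged between -0.5 and 0.585. Correlations of same-numbered libraries ranged between -0.616 and 0.514 (cortex), -0.399 and 0.295 (corpus callosum), -0.117 and 0.243 (striatum), and -0.111 and 0.144 (microglia). With a replicate block, 2 members were called with diet in MSA striatum (H2-K1 -0.92, adjusted p = 0.0366, and Tapbp -0.74, 0.0492) and 1 in MSA against control striatum on PLX5622 (B2m 1.16, 0.0379). Other member counts stayed as they were under the block. Over regions, libraries of the same genotype, diet and number had a consensus correlation of 0.0738.

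Signs changed as follows. Without libraries under 70% assigned the diet value in control mice was 0.075 for H2-K1, that in MSA mice 0.00085 for B2m, Tap2 on PLX5622 was -0.083 and the Nlrc5 interaction 0.23. Without corpus callosum Nlrc5 with diet in MSA mice was -0.061, Psmb9 on placebo -0.045, and on PLX5622 H2-K1 -0.14, H2-D1 -0.080, Tap1 -0.50 and Tap2 -0.31. Without the low-count filter the Nlrc5 interaction was 0.018 and Tap1 in microglia -0.0020. Leaving out each library gave Tapbp -0.12 to 0.74 and Psmb9 -0.50 to 1.94 in corpus callosum on PLX5622. With diet in control mice it gave H2-D1 -0.025 to 0.28, Tap1 -0.58 to 0.032, Tap2 -0.28 to 0.050 and Nlrc5 -0.043 to 0.61, and in MSA mice Nlrc5 -0.12 to 0.40. On PLX5622 averaged it gave Tap2 -0.069 to 0.37 and Tapbp -0.026 to 0.26, for the interaction Nlrc5 -0.40 to 0.27, and in microglia B2m -0.044 to 0.18, Tap1 -0.11 to 0.11 and Tapbp -0.051 to 0.037. Calls gained were Tapbp with diet without MSA striatum placebo library 1 (striatum -0.84, average -0.71) or MSA cortex PLX5622 library 3 (average -0.72), Psmb8 on PLX5622 without control cortex library 2 (2.07) or MSA cortex library 3 (1.93), and Tap2 in microglia without control library 1 (-0.32). The cause of these changes was not tested. Striatum comparisons that need the control PLX5622 libraries could not be fitted without them. The average over cortex and corpus callosum, which leaves them out and was also chosen after seeing the data, gave a count of 0 for MSA against control on PLX5622.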
